A study of Mus musculus with 8 samples.

Results

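Sox9 and the gene desert around it were followed through 8 ATAC-seq libraries of mouse tailbuds. Of the 26620 autosomal regions with deposited counts, 36 overlapped the window chr11:111000000-113050000 (mm9) and make up the locus described here. The regions were taken by position alone and by no measured value, though the window was set with earlier results of these data known. The region chr11:112642703-112644470 covers the Sox9 position that came with the window, base 112643000 of chromosome 11, and it is called the Sox9 start region. Distances below run from that position to the midpoint of a region. Upstream means towards Kcnj2, which encodes an inward-rectifier potassium channel. The files carry no gene names and no mm9 annotation was used here, so exons, introns and the marker genes of the tailbud were not located in the counts.

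ATAC-seq uses the Tn5 transposase to insert sequencing adapters into open chromatin. Both groups were embryos of the outbred CD-1 background at embryonic day 9.5, and tailbuds were cut off at the last somite. The 4 control libraries came from WT/WT embryos and the other 4 from Sd/Sd embryos, which carry 2 copies of Danforth's short tail, a mutation that truncates the vertebral column. Some libraries may hold the tailbuds of 2 embryos, and the labels do not tell which, so every p-value rests on the spread between libraries. A tailbud holds several tissues, so fewer cells with an open region and less opening per cell cannot be told apart.

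As background, SOX9 is an HMG-box transcription factor that directs cartilage formation, acts in the notochord, sclerotome, neural crest, hindgut and testis, and is required for a normal vertebral column. Its gene lies in a desert whose distant enhancers act in particular tissues, and rearrangements far upstream of human SOX9 cause skeletal and sex-development disorders. Danforth's short tail embryos lose their notochord, 1 of the tissues in which Sox9 is active. In the gene order of RefSeq (GRCm38.p6), the stretch between Kcnj2 and Sox9 holds 7 annotated genes. They are 5 long non-coding RNA genes (Gm30158, Gm30219, Gm30337, Gm39461 and BC006965), the pseudogene Gm11675 and the predicted protein-coding gene Gm11677. Between Sox9 and Slc39a11, which encodes a zinc transporter, RefSeq lists 9 long non-coding RNA genes, among them 2610035D17Rik.

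The libraries held between 2873918 and 4180434 counts over all regions, and between 2530 and 3916 of these fell in the window. A single region of the window received from 16 to 381 counts in a library. Levels are given as CPM, the counts of a region scaled to the total of its library over all regions. Densities are CPM per kb of region width, the scale on which regions of different width can be compared.

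Open chromatin was spread along the whole locus rather than gathered at the gene. Upstream of the Sox9 start region lay 25 regions and downstream lay 10. They covered 27928 bp with the start region, 1.36% of the window. The window held 17.6 regions per Mb, against 10.9 per Mb on the rest of chromosome 11 between its outermost regions. The median distance between neighbours was 41302 bp, close to the 46857 bp over all autosomes. Regions of the window were narrower than most, with a median width of 679.5 bp against 874 bp over all regions.

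The density of the desert was ordinary for this tissue. The median region had 32.0 CPM per kb, against 31.9 on the rest of chromosome 11 and 32.9 over all regions. Window densities ran from 17.2 to 52.0 CPM per kb, while all regions reached 667.5. By density, no region of the window passed the 84.7th percentile of all regions. The median was 32.0 CPM per kb upstream of the start region and 31.6 downstream.

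**Figure D1:**
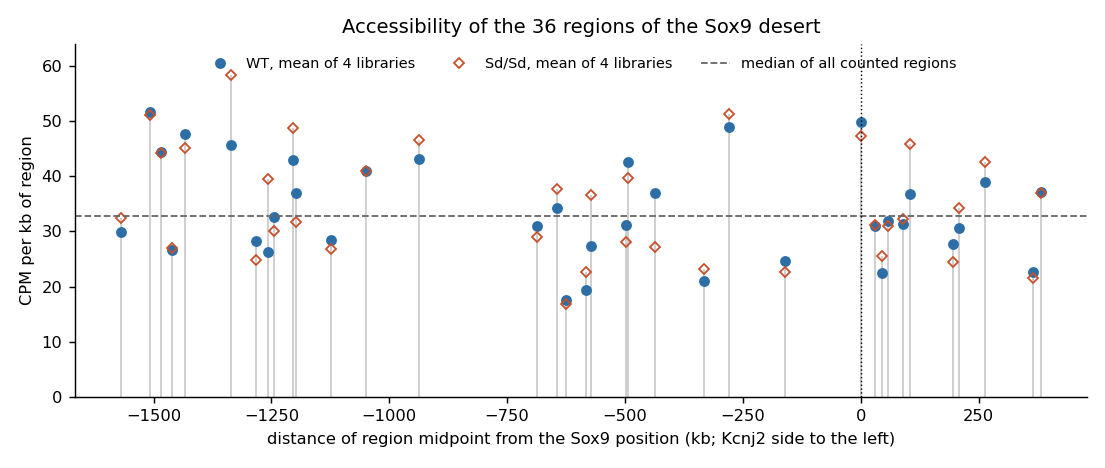
Mean CPM per kb (vertical axis) of each of the 36 regions against the distance of its midpoint from the Sox9 position in kb (horizontal axis), for WT (filled circles, mean of 4 libraries) and Sd/Sd (open diamonds, mean of 4). The dashed line is the median of all regions, 32.9 CPM per kb, and the 5 densest regions are the one at Sox9, one 279.7 kb upstream and 3 that lie 1335.6 to 1507.7 kb upstream.

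The Sox9 start region was the region with the most counts in the locus. It measured 1768 bp, wider than 93.4% of all regions, and took 9.32% of the window's counts. Its mean of 85.9 CPM stood at the 91.6th percentile of all regions, and its density of 48.6 CPM per kb at the 81.7th percentile. Only 3 regions of the window were denser.

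At the Sox9 start region the genotypes overlapped. The 4 WT libraries had 91.6, 96.0, 77.6 and 87.0 CPM (mean 88.0 ± 7.88, SD, n = 4). The 4 Sd/Sd libraries had 80.5, 77.0, 86.0 and 91.1 CPM (83.7 ± 6.19, n = 4). The lowest WT library and the lowest Sd/Sd library were nearly level, and 1 Sd/Sd library exceeded 2 of the WT libraries. The fitted log2 fold change of Sd/Sd over WT was -0.07 (SE 0.097, 95% interval -0.26 to 0.13), with an adjusted p of 0.971 in edgeR's quasi-likelihood test with Benjamini-Hochberg adjustment over all regions. On the linear scale the estimate was 0.956-fold and the interval ran from 0.837-fold to 1.09-fold. A loss to below 0.837-fold or a gain above 1.09-fold therefore lay outside the 95% interval.

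The authors' peak calls, made in each library alone, placed a peak on the Sox9 start region in 8 of 8 libraries. The peak's fold enrichment, the peak caller's own value, ran from 2.64 to 3.31 among WT libraries and from 2.52 to 3.01 among Sd/Sd libraries. The widest part called open in 1 library was 1640 bp, in Sd/Sd replicate 4, and the narrowest was 263 bp, in WT replicate 3. The call itself was of middling strength, since the −log10 q of this peak stood between the 39.5th and the 78th percentile of the peaks of its own library.

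Across the 36 regions no difference between the genotypes passed the test. With an adjusted p under 0.05 in edgeR the count was 0 of 36, against 5 of all 26620 regions (0.0188%), and DESeq2 and limma with voom also called 0. An unadjusted p under 0.05 was reached by 3 of the 36, of which 2 were higher and 1 was lower in Sd/Sd. That is 8.33% of the window. Over all regions 6.06% reached it, 2.98% higher and 3.09% lower, so the locus stood near the background. The share was 9.80% on the rest of chromosome 11, with 27 regions higher and 98 lower. The median log2 fold change was -0.0016 in the window and 0.0006 over all regions. Of the 36 estimates 18 were above 0 and 18 below, and they ran from -0.43 to 0.59. Upstream of Sox9 12 were above 0 and 13 below, and downstream 6 were above and 4 below.

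**Figure D2:**
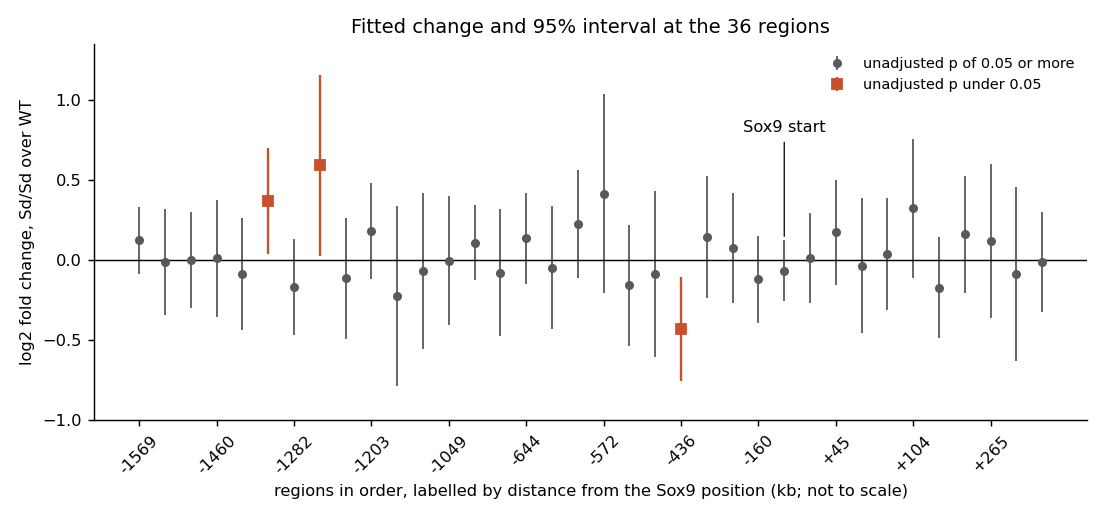
Fitted log2 fold change of Sd/Sd over WT (vertical axis) with its 95% interval for the 36 regions in chromosomal order (horizontal axis, labelled by distance from the Sox9 position in kb and not to scale). Squares mark the 3 regions with an unadjusted p under 0.05, at 0.37, 0.59 and -0.43, none of which passed the adjusted threshold.

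For 27 of the 36 regions the 95% interval stayed inside a 1.5-fold rise or fall, a share of 75.0% against 73.8% of all regions. For 34 it lay within 2-fold, a share of 94.4% against 98.1% of all regions. The exceptions were 2 of the narrowest regions, chr11:111384847-111385137 and chr11:112070783-112071029, whose means were 9.56 and 7.90 CPM. The median interval of the window reached 1.27-fold to each side, so smaller differences at a typical region of the locus were not detectable. That interval is not adjusted for the number of regions, and larger differences could fail the adjusted threshold as well. At chr11:112206459-112207266 an estimate of 0.742-fold had an adjusted p of 0.734 in edgeR.

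The region with the smallest p of the locus lay 436.1 kb upstream of Sox9, at chr11:112206459-112207266, and was lower in Sd/Sd. WT libraries had 31.0, 28.5, 29.6 and 30.2 CPM (29.8 ± 1.06, SD, n = 4). Sd/Sd libraries had 22.8, 20.4, 19.9 and 24.6 CPM (21.9 ± 2.20, n = 4). Every Sd/Sd library lay below every WT library. The log2 fold change was -0.43 (SE 0.17, 95% interval -0.76 to -0.10, 0.742-fold), with an unadjusted p of 0.00977 and an adjusted p of 0.734 in edgeR. The region did not pass over all regions. Its unadjusted p lay between 0.0055 and 0.0328 in 17 refits with edgeR, DESeq2 or limma, some with libraries left out. These refits reuse the libraries from which the region was picked, so they are no independent support. The authors called a peak there in 4 of 4 WT and 2 of 4 Sd/Sd libraries. Fold enrichment was 2.87 to 3.32 for the WT peaks and 2.60 to 2.73 for the 2 Sd/Sd peaks. The peaks come from the same libraries, so they are no independent support either.

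The other estimates with a small p were higher in Sd/Sd and lay far upstream. The counted region between them, chr11:111360030-111361180, had an estimate in the other direction, -0.17 on the log2 scale (95% interval -0.47 to 0.13). At chr11:111307129-111307616, 1335.6 kb upstream, WT libraries had 15.4, 22.2, 28.2 and 23.4 CPM (22.3 ± 5.30, SD, n = 4). Sd/Sd libraries had 29.4, 24.9, 32.6 and 27.0 CPM (28.5 ± 3.29, n = 4). WT replicate 3 lay inside the Sd/Sd range, so the groups overlapped. The fitted change was 0.37 (SE 0.17, 95% interval 0.04 to 0.70), with an unadjusted p of 0.0304 and an adjusted p of 0.802 in edgeR. Its unadjusted p was under 0.05 in 12 of 17 refits and reached 0.22 in the others. By the mean of all libraries this was the densest region of the window, at 52.0 CPM per kb (45.7 in WT and 58.4 in Sd/Sd). In WT alone it was not the densest, as chr11:111135036-111135530 had 51.6 CPM per kb there. It had a peak in 3 of 4 WT and 4 of 4 Sd/Sd libraries.

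At chr11:111384847-111385137, 1258.0 kb upstream, the WT libraries had 6.38, 7.62, 8.35 and 8.20 CPM (7.63 ± 0.898, SD, n = 4). The Sd/Sd libraries had 9.72, 9.71, 16.0 and 10.5 CPM (11.5 ± 3.03, n = 4). All Sd/Sd libraries exceeded all WT libraries, and Sd/Sd replicate 3 stood well above the rest. On the log2 scale the change was 0.59 (SE 0.29, 95% interval 0.03 to 1.16), with an unadjusted p of 0.0403 and an adjusted p of 0.816 in edgeR. This region is 291 bp wide and had a peak in 0 of 4 WT and 2 of 4 Sd/Sd libraries. All 36 counted regions had a peak with a q of at most 0.05 in at least 2 libraries, and here these were Sd/Sd libraries alone, a selection that favours a higher Sd/Sd value. The unadjusted p was under 0.05 in 11 of the 16 refits that kept the region and reached 0.217 in the others. It and the region 436.1 kb upstream were the only 2 of the 36 at which the genotypes did not overlap, 5.56% of the window against 3.2% of all regions.

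The next smallest p was at chr11:112746919-112747287, 104.1 kb downstream of Sox9. WT libraries had 13.0, 12.9, 16.0 and 12.3 CPM (13.6 ± 1.66, SD, n = 4). Sd/Sd libraries had 10.6, 20.4, 19.0 and 17.7 CPM (16.9 ± 4.38, n = 4). Sd/Sd replicate 1 was the lowest of all 8 libraries and the other Sd/Sd libraries were the highest. The log2 fold change was 0.32 (SE 0.22, 95% interval -0.11 to 0.76), with an unadjusted p of 0.142 and an adjusted p of 0.884 in edgeR. Without Sd/Sd replicate 1, the library that went the other way, the log2 fold change was 0.50. The unadjusted p was then 0.0313 and the adjusted p 0.603 in edgeR. It was the only 1 of 17 refits with an unadjusted p under 0.05 here, and without Sd/Sd replicate 2 the change was 0.23.

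A peak was called at that region in every Sd/Sd library and in 1 WT library, and the same split held at chr11:112851377-112852027, 208.7 kb downstream. The latter had 20.6, 19.5, 18.8 and 20.8 CPM in WT (19.9 ± 0.932, SD, n = 4). In Sd/Sd it had 25.3, 22.0, 22.9 and 18.9 CPM (22.3 ± 2.64, n = 4). The counts of the genotypes overlapped, with Sd/Sd replicate 4 among the WT values. The fitted change was 0.16 (95% interval -0.20 to 0.53), with an adjusted p of 0.952 in edgeR. No region of the window had a peak in 4 of 4 WT and at most 1 of 4 Sd/Sd libraries. How often either split occurs over all regions was not counted.

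**Figure D3:**
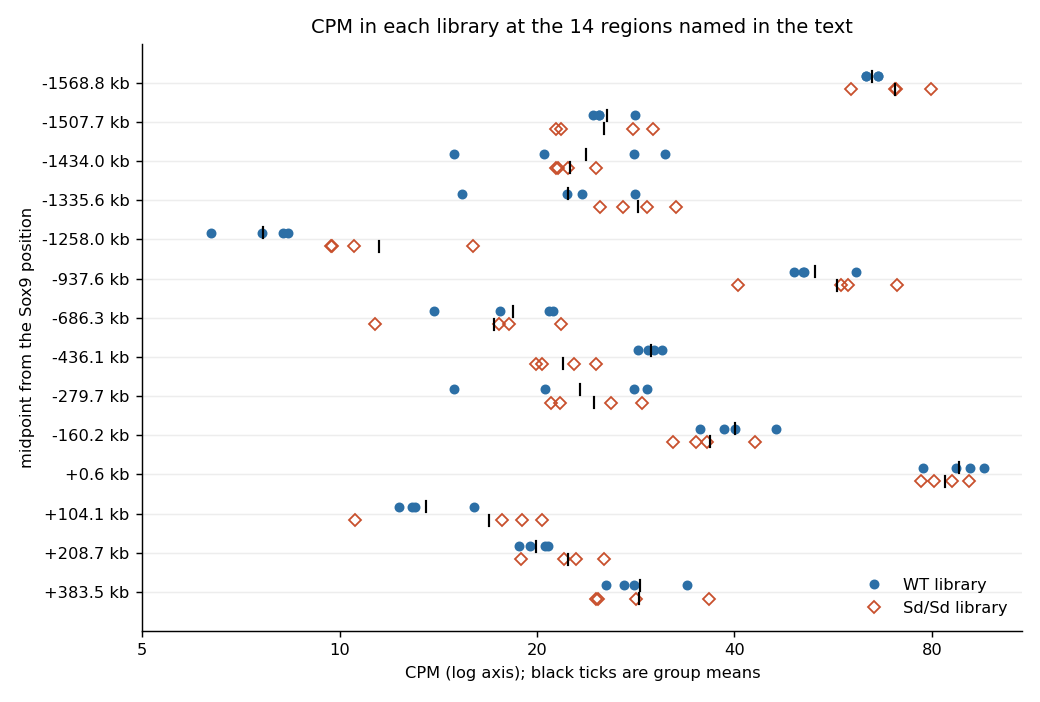
CPM on a log axis in each of 4 WT (filled circles) and 4 Sd/Sd (open diamonds) libraries at the 14 regions named by rule, in order of the distance of their midpoints from the Sox9 position in kb, with group means as black ticks. The groups overlap at 12 of these regions and are apart at those 436.1 kb and 1258.0 kb upstream.

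The densest regions after that at -1335.6 kb included 2 near the Kcnj2 end of the window and 1 on the nearer upstream side of Sox9. At chr11:111135036-111135530, 1507.7 kb upstream, the density was 51.4 CPM per kb. WT libraries had 24.3, 24.8, 28.2 and 24.9 CPM (25.6 ± 1.77, SD, n = 4), and Sd/Sd libraries had 21.4, 30.1, 28.0 and 21.8 CPM (25.3 ± 4.41, n = 4). A pair of Sd/Sd libraries lay below all WT values and the other pair near or above the highest, and the log2 fold change was -0.01 (95% interval -0.34 to 0.32). The region had a peak in 8 of 8 libraries.

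At chr11:112363072-112363547, 279.7 kb upstream of Sox9, the density was 50.1 CPM per kb. WT libraries had 20.6, 29.5, 15.0 and 28.1 CPM (23.3 ± 6.79, SD, n = 4). Sd/Sd libraries had 21.7, 21.0, 25.9 and 28.9 CPM (24.4 ± 3.73, n = 4). The WT libraries spanned the whole Sd/Sd range, and the log2 fold change was 0.08 (95% interval -0.27 to 0.42). Among peaks on counted regions of the window, the highest fold enrichment was here, at 4.79 in an Sd/Sd library and up to 4.71 in WT. Peaks were called in 3 of 4 WT and 4 of 4 Sd/Sd libraries.

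At chr11:111208751-111209247, 1434.0 kb upstream, the density was 46.5 CPM per kb. WT libraries had 31.3, 20.5, 15.0 and 28.1 CPM (23.7 ± 7.38, SD, n = 4), and Sd/Sd libraries had 21.4, 24.6, 22.3 and 21.5 CPM (22.5 ± 1.48, n = 4). All Sd/Sd libraries lay inside the WT range, which was the wider by far. On the log2 scale the change was -0.09 (95% interval -0.44 to 0.26).

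The widest regions marked the Kcnj2 end of the window and the near upstream side of Sox9. The first region of the window, chr11:111073070-111075239, was also the widest, at 2170 bp. It had 63.5, 63.6, 66.1 and 66.2 CPM in WT (64.8 ± 1.52, SD, n = 4) and 60.3, 70.5, 70.3 and 79.7 CPM in Sd/Sd (70.2 ± 7.92, n = 4). The WT libraries were close together and the Sd/Sd libraries lay on both sides of them. The log2 fold change was 0.12 (95% interval -0.09 to 0.33), with 0.19 when Sd/Sd replicate 1 was left out and 0.045 when Sd/Sd replicate 4 was. Though second in CPM within the window, it was 24th in density, at 31.1 CPM per kb.

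The last counted region before Sox9 was chr11:112481957-112483581, 160.2 kb upstream and 1625 bp wide. WT libraries had 38.5, 40.1, 46.3 and 35.4 CPM (40.1 ± 4.56, SD, n = 4), and Sd/Sd libraries had 35.0, 43.0, 32.3 and 36.4 CPM (36.7 ± 4.58, n = 4). The groups overlapped and the log2 fold change was -0.12 (95% interval -0.39 to 0.15). Its density of 23.6 CPM per kb was among the lowest of the locus. Peaks were called in 2 of 4 WT and 4 of 4 Sd/Sd libraries.

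Between that region and the Sox9 start region no counted region lay over 159121 bp. Stretches this long or longer made up 14.6% of those between neighbouring regions of all autosomes. The authors' lists placed 4 peaks in the stretch, each in 1 library. The one nearest to Sox9, chr11:112624179-112624413, 18.7 kb upstream, was called in Sd/Sd replicate 1 only. Its fold enrichment of 4.95 was the highest of all peaks of the window, with a −log10 q of 7.98. The other 3 were found in WT replicate 1, WT replicate 4 and Sd/Sd replicate 4.

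The longest stretch without a counted region, 250406 bp, separated the far from the middle desert. At its upstream end chr11:111704760-111705988 had 51.0, 49.3, 50.8 and 61.2 CPM in WT (53.1 ± 5.46, SD, n = 4) and 40.5, 70.9, 58.2 and 59.6 CPM in Sd/Sd (57.3 ± 12.5, n = 4). Both the lowest and the highest library were Sd/Sd, and the log2 fold change was 0.11 (95% interval -0.12 to 0.34). It was 0.25 without Sd/Sd replicate 1 (unadjusted p = 0.045, adjusted p = 0.641 in edgeR) and -0.0012 without Sd/Sd replicate 2. At its other end chr11:111956395-111956986 had 21.2, 13.9, 20.9 and 17.6 CPM in WT (18.4 ± 3.40, n = 4) and 17.5, 11.3, 18.1 and 21.8 CPM in Sd/Sd (17.2 ± 4.33, n = 4). These groups overlapped as well, and the log2 fold change was -0.08 (95% interval -0.48 to 0.32).

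Downstream of Sox9 the first region, chr11:112671986-112673146, followed at 29.6 kb and varied little. It had 34.8, 38.1, 34.8 and 36.6 CPM in WT (36.1 ± 1.60, SD, n = 4) and 38.6, 37.2, 35.3 and 34.0 CPM in Sd/Sd (36.3 ± 2.05, n = 4). The fitted change was 0.01 (95% interval -0.26 to 0.29), and a peak was present in 8 of 8 libraries. The last region of the window, chr11:113026080-113026851, had 33.9, 25.5, 27.1 and 28.1 CPM in WT (28.7 ± 3.66, n = 4) and 28.3, 36.6, 24.7 and 24.6 CPM in Sd/Sd (28.6 ± 5.60, n = 4), with an estimated change of -0.01 on the log2 scale (95% interval -0.32 to 0.30). Both groups again shared their range. Just outside the window the neighbour on the Kcnj2 side had 18.2 ± 1.70 CPM in WT and 17.7 ± 2.42 in Sd/Sd (SD, n = 4 each). The neighbour on the other side had 43.5 ± 3.16 CPM in WT and 43.6 ± 3.12 in Sd/Sd.

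The other 21 regions had mean levels between 7.90 and 34.5 CPM and log2 fold changes between -0.22 and 0.41, each with an interval that included 0. The value of 0.41 was at chr11:112070783-112071029. Its peaks with a q of at most 0.05 also came from Sd/Sd libraries alone, the selection that favours a higher Sd/Sd value. In steps of 250 kb from the Kcnj2 end, the sums of the 21 regions together with the named ones were of like size in both genotypes. The step around Sox9, from 143 kb upstream to 107 kb downstream, held 6 regions with 200.6 ± 12.8 CPM in WT and 203.1 ± 11.1 in Sd/Sd (SD, n = 4 each). The step from 643 to 393 kb upstream, which includes the region with the smallest p, held 110.9 ± 3.40 CPM in WT and 105.3 ± 4.58 in Sd/Sd.

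Summed over the locus, the WT libraries had 944.9, 915.3, 880.3 and 928.2 CPM (917.2 ± 27.4, SD, n = 4). The Sd/Sd libraries had 848.2, 961.1, 972.4 and 936.7 CPM (929.6 ± 56.3, n = 4). Sd/Sd replicate 1 was the lowest of all libraries and Sd/Sd replicates 2 and 3 the highest, so the groups overlapped with the Sd/Sd values the more spread. The median coefficient of variation over the 36 regions was 12.6% in WT and 17.4% in Sd/Sd, while over all regions it was 14.0% in both.

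The rest of chromosome 11, 1276 regions, had a median log2 fold change of -0.06, against -0.0016 in the window, a difference that was not tested. Its median deviation from the mean of the libraries was 0.073 log2 units in WT replicate 1. It was -0.089 in Sd/Sd replicate 4 and between -0.0047 and 0.0219 in the other libraries. WT replicate 1 had 0.0088 on this measure in the window, against -0.0060 for Sd/Sd replicate 4. Most other libraries deviated more there. Sd/Sd replicates 1, 2 and 3 had -0.095, 0.067 and 0.069. WT replicates 2 and 3 had -0.044 and -0.082, while WT replicate 4 had 0.0073. Without WT replicate 1 plus Sd/Sd replicate 4, regions of the window with an unadjusted p under 0.05 numbered 0 higher and 1 lower. The latter was the region 436.1 kb upstream. For that refit the share over all regions is not given here.

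Broad peaks in the window numbered 29, 23, 21 and 35 in the WT libraries (27.0 ± 6.32, SD, n = 4) and 34, 23, 32 and 40 in the Sd/Sd libraries (32.3 ± 7.04, n = 4). The groups overlapped, and the library with most peaks, Sd/Sd replicate 4, also had the most counts. As a share of all peaks of their library they made up 0.124% ± 0.0140 in WT and 0.126% ± 0.0120 in Sd/Sd. Their median fold enrichment per library ran from 2.93 to 3.19, against 3.13 to 3.46 for all peaks, and was below it in each library.

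**Figure D4:**
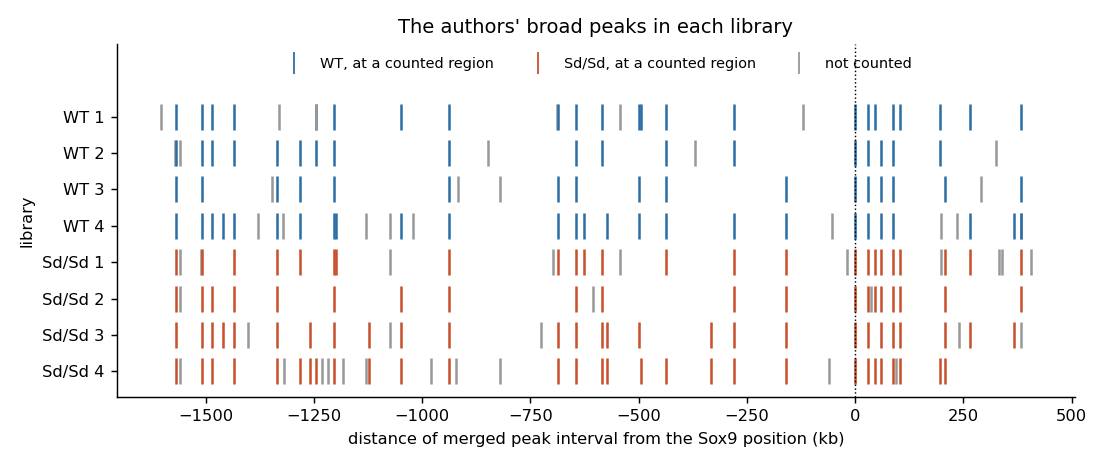
The authors' broad peaks of each library (rows) by the distance of their merged interval from the Sox9 position in kb (horizontal axis), in colour where the interval overlaps a counted region and in grey where it does not. The start region at 0 is marked in all 8 libraries, and most grey marks stand in 1 library only.

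Merging the 237 peaks at an overlap of at least 1 bp gave 80 intervals, of which 36 overlapped the counted regions. Of these regions 8 had a peak in all 8 libraries, 17 in 4 to 7 and 11 in 2 or 3. Presence went with level, with a median of 35.3 CPM where all libraries had a peak and 12.2 CPM where 2 or 3 did. More Sd/Sd than WT libraries had a peak at 14 regions, fewer at 6, and equally many at 16. Over the whole library, peaks numbered 22596, 20316, 18682 and 24664 in WT and 25809, 21306, 24102 and 30387 in Sd/Sd. The same split over all regions was not counted, so the lean cannot be called particular to this locus. At 3 regions, chr11:111384847-111385137, chr11:111519676-111520116 and chr11:112311067-112311949, the peaks came from Sd/Sd replicates 3 and 4 alone, and at 0 regions from WT libraries alone. The second of these had 12.6 ± 2.77 CPM in WT and 11.8 ± 2.81 in Sd/Sd, and the third 18.5 ± 2.99 and 20.4 ± 2.55 (SD, n = 4 each). The counts of the genotypes thus overlapped at both. The other Sd/Sd libraries had no peak there either, like the WT libraries.

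The 44 intervals without a counted region were mostly of single libraries, 38 of 44. They came from WT alone in 18 cases, from Sd/Sd alone in 20 and from both in 6. The one seen most often, chr11:111084296-111086053, 1557.8 kb upstream, was called in 1 WT and 3 Sd/Sd libraries. The highest fold enrichment of an interval had a median of 2.80 among the intervals without counts and 3.48 among those with counts.

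Over the 8 libraries, log2 CPM of the Sox9 start region went most closely with chr11:112363072-112363547, 279.7 kb upstream (Pearson's r = 0.739 over 8 libraries). The next were chr11:112149623-112149888, 493.2 kb upstream (r = 0.623), and chr11:111157478-111158179, 1485.2 kb upstream (r = 0.611). These are descriptions without a test. The libraries share their depth and composition across regions, the median r of the other window regions was 0.046, and over all regions r ran from -0.975 to 0.964. The nearest region downstream of Sox9 was not among these 3.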

How the data were processed

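Per the submitters' processing notes, the build was mm9 and the tools included BWA 0.7.15-r1140, MACS2 2.1.1.20160309 and bedtools 2.26.0. No source here records their settings. The authors deposited whole-number counts per region for each library, and broad peaks with a score, a fold enrichment (ratio) and −log10 p-values and q-values. What was counted (reads, fragments or cuts) no source states.

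Counts were tested with edgeR 4.0.16 in R 4.3.3 (quasi-likelihood, robust, TMM, genotype as the only term) over all 26620 regions, adjusted by Benjamini-Hochberg. filterByExpr removed 0 regions, and the procedure was tested on simulated data. Printed CPM use plain library totals. Regions were named if within 10 kb of Sox9, among the 5 densest, the 4 of smallest p or the 3 widest, at an end of the window or of its longest gap, or with peaks in all 4 libraries of a genotype and at most 1 of the other; the first region downstream, the peaks in the gap before Sox9 and the regions with peaks in Sd/Sd only were added after their values were seen. The window, lists and alternatives (DESeq2 1.42.0, limma 3.58.1, scalings, filters, a block, left-out libraries, peak thresholds) were chosen with earlier results of these data known.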

Additional observations from a re-analysis of the deposited data

Results flagged for a closer look

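Of the 34 sets of 4 replicate values checked for a value far from its fellows, 3 had one, and chance alone gives about 1 in 20. At chr11:111135036-111135530, 1507.7 kb upstream of Sox9, WT replicate 3 reached 28.2 CPM while the other 3 WT libraries had 24.3 to 24.9. At chr11:111384847-111385137, 1258.0 kb upstream, Sd/Sd replicate 3 reached 16.0 CPM while its fellows had 9.71 to 10.5. At chr11:111704760-111705988, 937.6 kb upstream, the outlying value was 61.2 CPM, in WT replicate 4, with 49.3 to 51.0 in the rest of its group.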

How the results depend on the processing

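No region of the window passed the adjusted threshold in any of 17 refits (lowest adjusted p 0.525, in edgeR with the replicate block). The refit without a filter on low counts, included in that number, equals the main fit because filterByExpr removed 0 regions. The log2 fold change of the Sox9 start region stayed below 0, from -0.12 to -0.02 with 1 library left out, and at -0.0092 relative to the rest of chromosome 11. The number of regions with an unadjusted p under 0.05 and higher in Sd/Sd, 2 in the report, was 1 with DESeq2, with a mean count of at least 50 and with the replicate block, 0 within 500 kb of Sox9, 0 without WT replicate 1 plus Sd/Sd replicate 4, and 0 to 4 with 1 library left out. Leaving out WT replicate 1 or Sd/Sd replicate 3 gave 0, WT replicate 2 gave 1 and Sd/Sd replicate 1 gave 4. The number lower was 1 throughout. The share over all regions in each refit is not given here, so these counts cannot be called particular to the locus. Deviations of same-numbered libraries had correlations of -0.0011 to 0.0082 for replicates 1 to 3. For replicate 4 the correlation was 0.0918, the highest of all pairs, while pairs of unlike number ran from -0.0473 to 0.0204. Not every library correlated best with its own number, and the block changed no other call. Counted regions with a peak in 8 of 8 libraries, 8 in the report, numbered 0 with peaks of q at most 1e-05 and 1 when a peak had to cover at least 50% of the region. Of 220 values for the other 13 named regions, 16 changed sign. With 1 library left out, the log2 fold change ran from -0.10 to 0.059 at chr11:111135036-111135530, from -0.25 to 0.072 at chr11:111208751-111209247, from -0.0012 to 0.25 at chr11:111704760-111705988, from -0.23 to 0.069 at chr11:111956395-111956986, from -0.080 to 0.20 at chr11:112363072-112363547 and from -0.14 to 0.082 at chr11:113026080-113026851. With WT replicate 1 and Sd/Sd replicate 4 both left out it was 0.026 at the first of these, 0.088 at the one 1434.0 kb upstream, -0.089 at the one 279.7 kb upstream and 0.15 at the last. The sign held with each library left out at the other 7, where the range was 0.045 to 0.19 at chr11:111073070-111075239, 0.22 to 0.49 at chr11:111307129-111307616, 0.40 to 0.67 at chr11:111384847-111385137, -0.50 to -0.38 at chr11:112206459-112207266, -0.20 to -0.049 at chr11:112481957-112483581, 0.23 to 0.50 at chr11:112746919-112747287 and 0.094 to 0.23 at chr11:112851377-112852027. The cause was not tested. Counts of 16 to 381 per region and library limit what could be seen.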
